A study of Mus musculus with 6 samples.

Results

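The keratin genes of the embryonic mouse lung are described here, chosen as every row of the deposited table whose gene symbol is Krt followed by a number, which leaves out the keratin-associated proteins. The rule gave 50 genes, each with 1 probe set, of 28815 probe sets on the array. They were split into 4 simple-epithelial keratins (Krt7, Krt8, Krt18 and Krt19), 4 basal keratins (Krt5, Krt14, Krt15 and Krt17) and 42 keratins of hair, skin and other sites. RNA came from E14.5 lungs of a mixed C57BL/6 and 129X1,129S1 background. The 3 control embryos carried ShhCre, and the 3 mutant embryos carried Shh-cre with both Foxp1 and Foxp4 homozygous for floxed alleles (Foxp1flox/flox, Foxp4flox/flox). The Cre recombinase is thus shared by both groups, and it acts where Shh is expressed, which in the lung is the epithelium, while the RNA was labelled as lung, in which mesenchyme, vessels and mesothelium keep the floxed genes intact. The design asks how loss of these forkhead transcription factors bears on secretory differentiation in the lung.

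Keratins build the intermediate filaments of epithelial cells, and a filament always pairs an acidic type I with a basic type II protein. Single-layered epithelia such as that of the developing lung use Krt8 with Krt18, to which Krt7 and Krt19 are added. Krt5 with Krt14 marks the basal cells of stratified and pseudostratified epithelia, where Krt15 and Krt17 are also found, and the remaining members serve mainly epidermis, stratified mucosa and hair follicle. In bulk lung RNA, fewer cells of a type and less RNA per cell cannot be told apart.

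Values are log2 expression, mutant change means mutant minus control, and a gene was called where limma's adjusted p, over all 28815 probe sets, was under 0.05. Any 2 arrays correlated at 0.9947 to 0.9985 across probe sets, with medians between 8.21 and 8.23. Control 3 stood apart from the other arrays: Xist, expressed from the inactive X, read 12.83 there and at most 6.23 elsewhere. The Y-linked Ddx3y read 5.89 in control 3 and 9.45 to 10.64 elsewhere. By these genes control 3 read as female, and the other controls and all mutants as male. The dim probe sets of control 3 also ran high, as given beside the keratins below. Whether sex bears on these values was not tested. Foxp4 fell in mutants by 0.41 on the log2 scale (limma adjusted p = 0.0190), while every mutant value of Foxp1 lay below the controls at -0.27 without a call (adjusted p = 0.0884; q of 3.70% in the authors' deposited table). Neither probe set is known to lie in the deleted part.

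Krt19, a type I keratin of simple epithelia and of mesothelium, was the 1 keratin called, and it fell. It read 10.16, 10.02 and 10.02 in the controls and 9.76, 9.60 and 9.57 in the mutants. Every mutant array lay below every control array, with a gap between the groups wider than the range within either control or mutant arrays. The log2 change was -0.42 (SE 0.07, 95% interval -0.58 to -0.27, limma adjusted p = 0.0382), or 1.34-fold lower. The exact permutation p for 3 against 3 values was 0.1, the smallest possible. The 1 called gene is 2% of the keratins, set against 0.774% of all probe sets called in either direction, 0.26% called lower and 0.514% called higher. The call rests on nearly every array: limma's adjusted p was 0.0760 without control 1, 0.117 without control 2, 0.0950 without control 3, 0.162 without mutant 2 and 0.144 without mutant 3, and it passed without mutant 1 alone (0.0455). The change itself stayed between -0.48 and -0.38 in these 6 fits. In the authors' deposited table Krt19 was also lower, with a q of 1.49%.

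The other simple-epithelial keratins were not called. Krt18, the type I partner of Krt8, read 10.80, 10.77 and 10.89 in controls and 11.02, 10.96 and 10.88 in mutants. Its highest values were in mutants, yet mutant 3 lay below control 3, and the log2 change of 0.13 (95% interval -0.000235 to 0.26) was not called (limma adjusted p = 0.424). Every mutant value of Krt18 lay above controls 1 and 2. Without control 3 its log2 change was 0.17 and still not called (limma unadjusted p = 0.0243, adjusted p = 0.403). Krt8, the type II partner, read 11.76, 11.76 and 11.73 in controls and 11.91, 11.79 and 11.70 in mutants. The mutant arrays of Krt8 straddled the tightly grouped controls, with a log2 change of 0.05 (95% interval -0.09 to 0.19, adjusted p = 0.775). Krt7, a type II keratin of simple and ductal epithelia, read 10.66, 10.66 and 10.72 in controls and 10.63, 10.57 and 10.43 in mutants. All mutant values of Krt7 were below the controls, but narrowly, and its log2 change of -0.14 (95% interval -0.28 to 0.00507) was not called (limma adjusted p = 0.434).

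**Figure D1:**
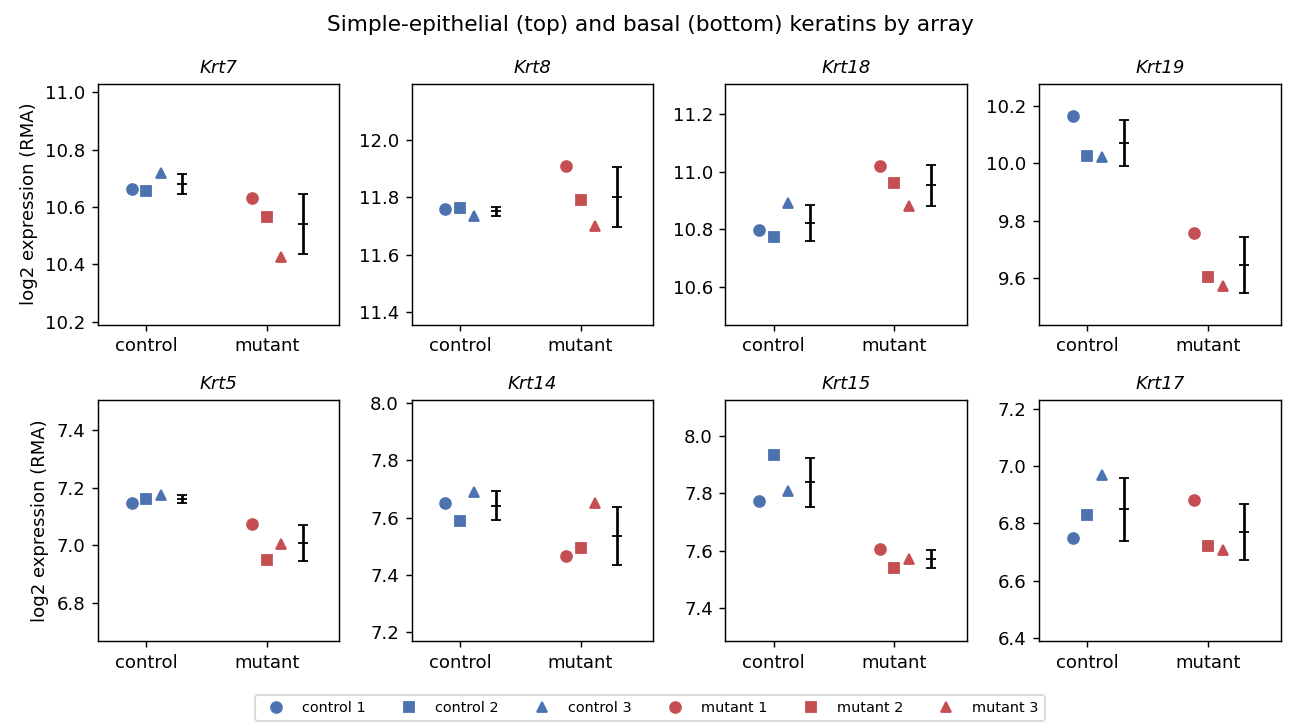
Log2 expression of the 4 simple-epithelial (top) and 4 basal keratins (bottom) on each of the 3 control and 3 mutant arrays; black bars are the mean and SD of a group, and every panel spans the same log2 range. Krt19 shows the widest gap between groups (10.07 against 9.65), while Krt8 and Krt18 overlap.

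Set against each of the other simple keratins within an array, Krt19 was lower on every mutant array than on any control array. Krt19 minus Krt18 was -0.64, -0.75 and -0.87 in controls and -1.26, -1.36 and -1.31 in mutants, a difference of -0.56 between groups. The mutant arrays lay well below the controls, and the same held against Krt8, at a difference of -0.47. Against Krt7 it was -0.29, and against Epcam, an adhesion molecule present throughout the lung epithelium, it was -0.34. For each of these 4 pairs the groups did not overlap and the 2-sided exact permutation p reached its floor for 3 against 3 arrays, 0.1, or 0.12 adjusted over the 6 pairs compared. All 4 pairs share Krt19, whose own groups did not overlap, and genes were chosen with earlier results known. The 4 pairs are thus no separate evidence. Such differences show unequal change of a pair of probe sets, not unequal amounts of transcript. Krt15 minus Krt5 differed by -0.11 between groups (adjusted exact p = 0.12) and Krt15 minus Krt14 by -0.16 (adjusted exact p = 0.3, overlapping groups).

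**Figure D2:**
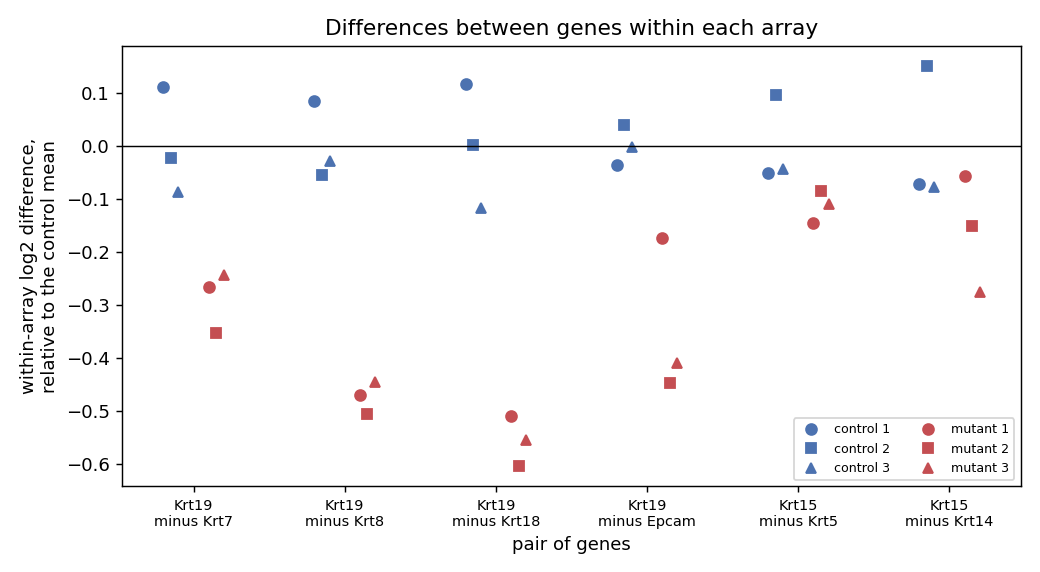
Difference in log2 expression between pairs of genes within each array, drawn relative to the control mean of the pair (0 line); blue marks are control arrays, red marks are mutant arrays. For Krt19 against Krt18 and Krt8 the mutant arrays lie lowest, at mean differences of -0.56 and -0.47 from the controls.

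Markers of tissues in which Krt19 is found were read beside it. Of 10 epithelial markers 0 were called (limma; 0 also at an unadjusted p under 0.05), 4 lay below 0 and 6 above, and their summed linear level ran from 20140 to 21240 in controls and from 20270 to 20880 in mutants. The log2 change of Epcam was -0.08 (95% interval -0.24 to 0.07), with the E-cadherin gene Cdh1 at -0.07 and the lung lineage factor Nkx2-1 at 0.06 (limma adjusted p = 0.662, 0.745 and 0.688). Of 8 mesothelial markers 0 were called, 3 (37.5%) had an unadjusted limma p under 0.05, all lower, beside 6.56% of all probe sets, and 7 (87.5%) lay below 0, beside 58.4%, with a median log2 change of -0.17. Their summed level ran from 6001 to 6602 in controls and from 5245 to 6052 in mutants. The 3 were Aldh1a2, an enzyme of retinoic acid synthesis (log2 change -0.34, limma adjusted p = 0.215), Gpm6a (-0.26, 0.172) and Muc16 (-0.22, 0.311). In each of them all mutant values lay below the controls (37.5% of the list, beside 10.1% of all probe sets). The mesothelial uroplakin Upk3b stood at -0.15 on the log2 scale (limma adjusted p = 0.434), with the mesothelial transcription factor Wt1 at -0.05 (0.820), mesothelin, Msln, at -0.02 (0.844), Lrrn4 at -0.18 (0.458) and Upk1b at 0.08 (0.630). The part of mesothelium in the fall of Krt19 was not tested.

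All 4 basal keratins had log2 changes below 0, beside 66.6% of all probe sets with a mean under 8. Of the 4, 0 were called (limma; 2 lower at an unadjusted p under 0.05, beside 7.36% of the probe sets under 8). Krt15, a type I keratin of basal and early airway epithelial cells, read 7.77, 7.93 and 7.81 in controls and 7.60, 7.54 and 7.57 in mutants. The groups of Krt15 did not overlap, with a gap about as wide as the spread of the controls. Its log2 change was -0.27 (SE 0.06, 95% interval -0.40 to -0.14), the second lowest of the 50 keratins, with a limma adjusted p of 0.110. In the authors' deposited table Krt15 had a q of 4.67%, so that their table holds 2 keratins with a q under 5%, against 0.67% of probe sets lower and 1.72% in either direction at that q.

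Krt5, the type II basal keratin, read 7.15, 7.16 and 7.17 in controls and 7.07, 6.95 and 7.004 in mutants. Its controls were tight and all mutants lower, with a log2 change of -0.15 (95% interval -0.27 to -0.04, limma adjusted p = 0.280). Krt14, its type I partner, read 7.65, 7.59 and 7.69 in controls and 7.46, 7.49 and 7.65 in mutants. Here mutant 3 reached the controls, and the difference was -0.11 (95% interval -0.25 to 0.04, adjusted p = 0.541). Krt17, which is induced in injured and hyperproliferative epithelia, read 6.75, 6.83 and 6.97 in controls and 6.88, 6.72 and 6.71 in mutants. Its groups overlapped through mutant 1, and the log2 change of -0.08 (95% interval -0.25 to 0.09, adjusted p = 0.700) was -0.02 without control 3. Trp63, the transcription factor that defines basal cells, stood at -0.05 (limma adjusted p = 0.706). All 4 basal keratins had means under 8, below the median of all probe sets, and no detection values were used, so whether they were expressed at this stage was not tested. Krt14, Krt16 and Krt17 are closely related in sequence, and cross-hybridisation between them was not checked.

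Among the 42 keratins of hair, skin and other sites 0 were called (limma; 6, or 14.3%, had an unadjusted p under 0.05, all lower, beside 6.56% of all probe sets and 7.36% of those with a mean under 8). Krt4 and Krt13, the type II and type I pair of stratified mucosa such as oesophagus, were both among the 6. Krt13 read 6.95, 7.15 and 6.99 in controls and 6.92, 6.78 and 6.79 in mutants, a difference of -0.20 on the log2 scale (limma adjusted p = 0.316), the lowest of the 42. Krt4 stood at -0.18 (adjusted p = 0.262), and in both genes every mutant array lay below every control array. The others of the 6 were Krt84, a hair keratin (log2 change -0.19), Krt23 (-0.17), the injury-associated Krt6a (-0.16) and Krt1 of the suprabasal epidermis (-0.16), with limma adjusted p from 0.269 to 0.373.

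The 4 of the 42 with the highest signal were not called. Krt33b, a hair shaft keratin, had a log2 change of -0.04, Krt83 (Krt87 in the reference used for names) one of -0.11, Krt80 one of -0.11 and Krt12, the keratin of the corneal epithelium, one of -0.08, with limma adjusted p from 0.575 to 0.824. Without control 3 Krt12 stood at -0.02 and Krt33b at 0.02. The highest change of the 42 was that of Krt40, a type I hair keratin, at 0.07 (95% interval -0.14 to 0.28, adjusted p = 0.777). By site, all 10 keratins of the inner root sheath and companion layer lay below 0 (median log2 change -0.0865), as did all 3 activation keratins (-0.10), 5 of 7 epidermal suprabasal ones (-0.06) and 9 of 13 hair shaft ones (-0.04), beside 66.6% of all probe sets with a mean under 8. Without control 3 the inner root sheath and companion layer keratins below 0 were 8 of 10 (median -0.0381) and the epidermal suprabasal ones 4 of 7 (median -0.0203). The hair shaft ones were then 7 of 13 (median -0.0401) and the activation ones 3 of 3 (median -0.0755), beside 55.8% of the probe sets under 8.

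**Figure D3:**
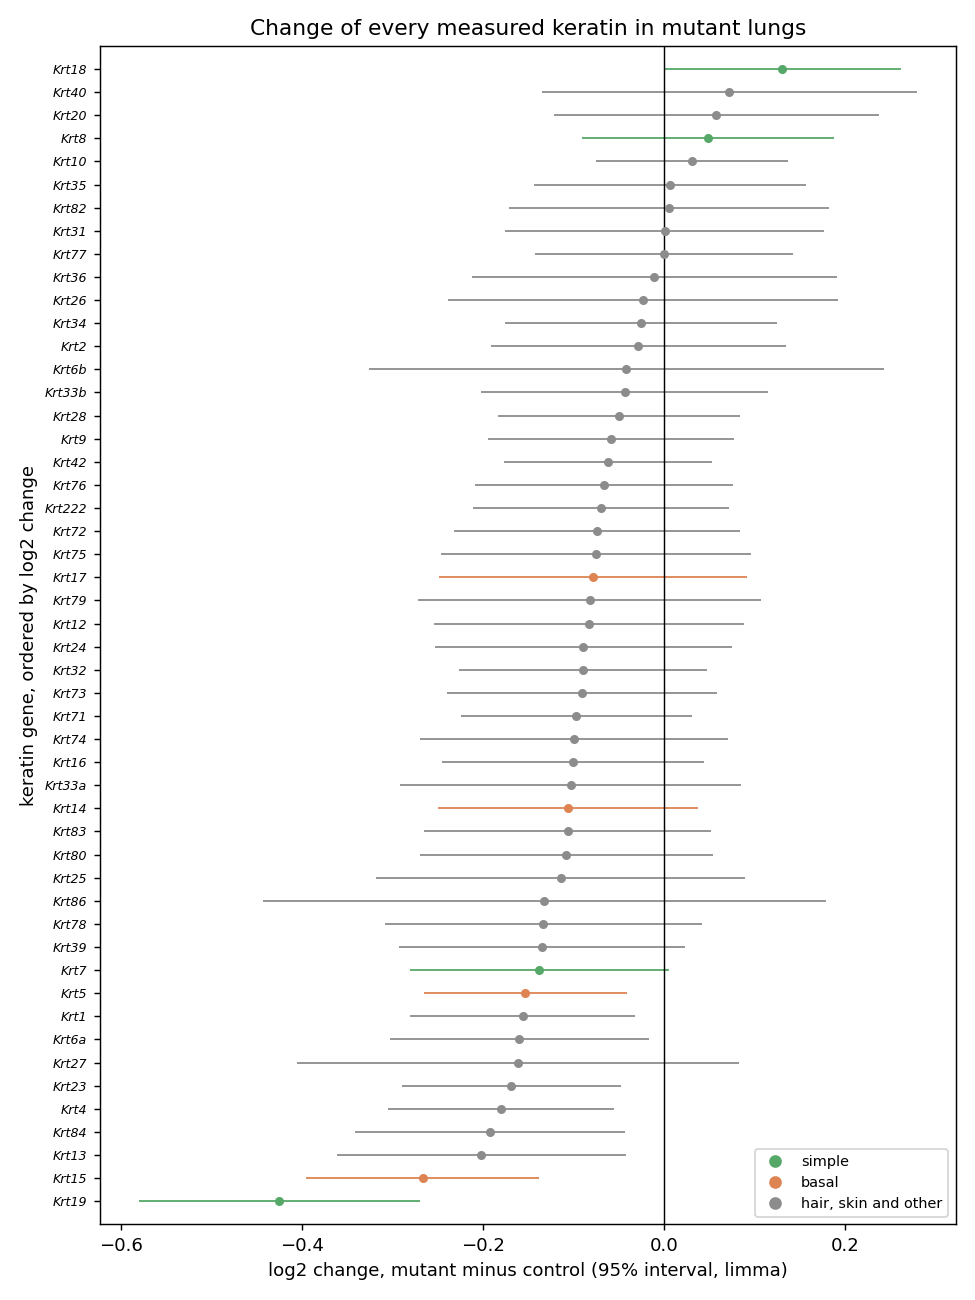
Log2 change of each of the 50 keratins, mutant minus control, with limma's 95% interval; colours mark simple-epithelial, basal and other keratins. Krt19 lies lowest at -0.42, Krt15 next at -0.27, and Krt18 highest at 0.13.

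Taking all 50 keratins, 41 (82%) had a log2 change below 0, with a median of -0.0863, set against 58.4% of all probe sets and a median of -0.0176. Most keratins are dim, 43 of 50 having a mean under 8, and among these 43 the share below 0 was 83.7%, beside 66.6% of all 13633 probe sets under 8 (74.4% beside 55.8% without control 3). In 10 of the 50 keratins (20%) every mutant value lay below every control value, beside 10.1% of all probe sets, and for the keratins under 8 the shares were 18.6% beside 9.98%. In all, 0 keratins had every mutant value above the controls, beside 7.83% of probe sets. At an unadjusted limma p under 0.05, 9 keratins (18%) were lower and 0 higher, beside 6.56% and 5.22% of all probe sets. These counts describe one family read on the same 6 arrays, and its genes are not independent.

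The arrays contributed unequally to these counts. Over the 46 keratins other than the simple-epithelial ones, the median deviation from the 6-array median was 0.103 in control 3, -0.0252 and 0.0280 in controls 1 and 2, 0.00251 in mutant 1, and -0.0617 and -0.0677 in mutants 2 and 3. Control 3 was the highest array for 29 of the 46 and the lowest for 0, and mutants 2 and 3 were the lowest for 19 and 12. For all probe sets with a mean under 8, control 3 was again highest, at 0.0534, and mutants 2 and 3 lowest, at -0.0182 and -0.0240. Without control 3 the keratins below 0 numbered 36 (72%), beside 54.8% of all probe sets, and their median log2 change was -0.0505, beside -0.00986. In that comparison all mutant values lay below both controls for 11 keratins (22%), beside 16.9% of probe sets. For Krt18 (log2 change 0.17) all mutant values then lay above both controls, and it passed the unadjusted limma threshold as higher. Both counts of 0 keratins higher given above thus rest on control 3. Of the 9 lower keratins, Krt1 and Krt6a no longer passed that threshold, while Krt80 newly passed it as lower (-0.16). Krt19 had as large a log2 change without control 3, -0.45.

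**Figure D4:**
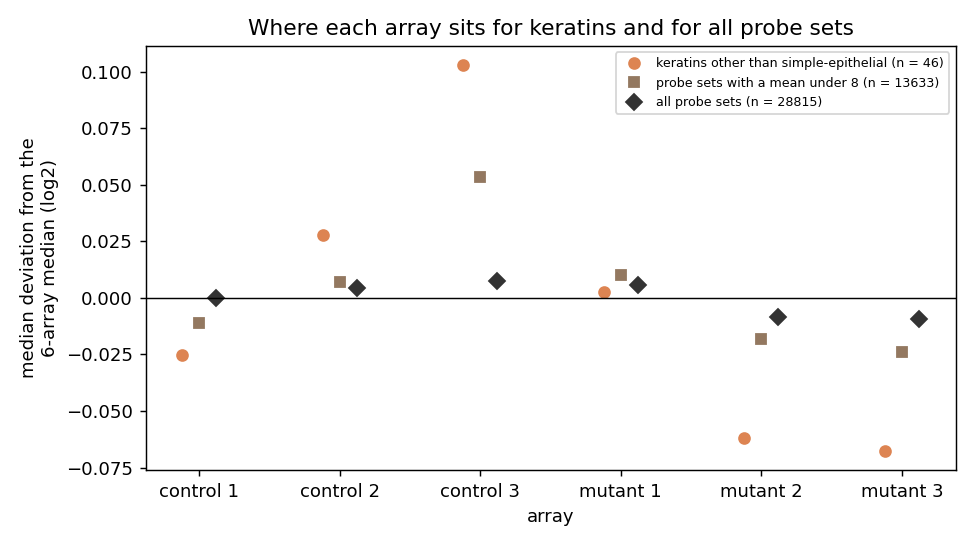
Median deviation of each array from the 6-array median, for the 46 keratins other than the simple-epithelial ones, for all probe sets with a mean under 8, and for all probe sets. Control 3 is highest for the keratins (0.103) and for the dim probe sets (0.0534), and mutants 2 and 3 are lowest.

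The genes lie in a pair of clusters, 27 on chromosome 11, which holds type I keratins, and 23 on chromosome 15, which holds type II keratins and the type I gene Krt18. None lies on the chromosomes of Foxp1 (6) or Foxp4 (17). Of the chromosome 11 keratins 22 (81.5%) lay below 0 (median log2 change -0.0786) and of those on chromosome 15, 19 (82.6%, median -0.0971). The share was 58.4% of all probe sets and 66.6% of those with a mean under 8. Without control 3 the chromosome 11 keratins below 0 were 18 (66.7%, median -0.0474). Those on chromosome 15 were then 18 (78.3%, median -0.0572), beside 54.8% of all probe sets and 55.8% of those under 8. In gene order, the 3 lowest changes on chromosome 11 were those of members next to each other among the measured keratins, Krt13 at -0.20, Krt15 at -0.27 and Krt19 at -0.42, with Krt9 beyond Krt19 at -0.06. On chromosome 15 the last members in order, Krt8 and Krt18, held the 2 highest changes, 0.05 and 0.13, beside Krt78 at -0.13.

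**Figure D5:**
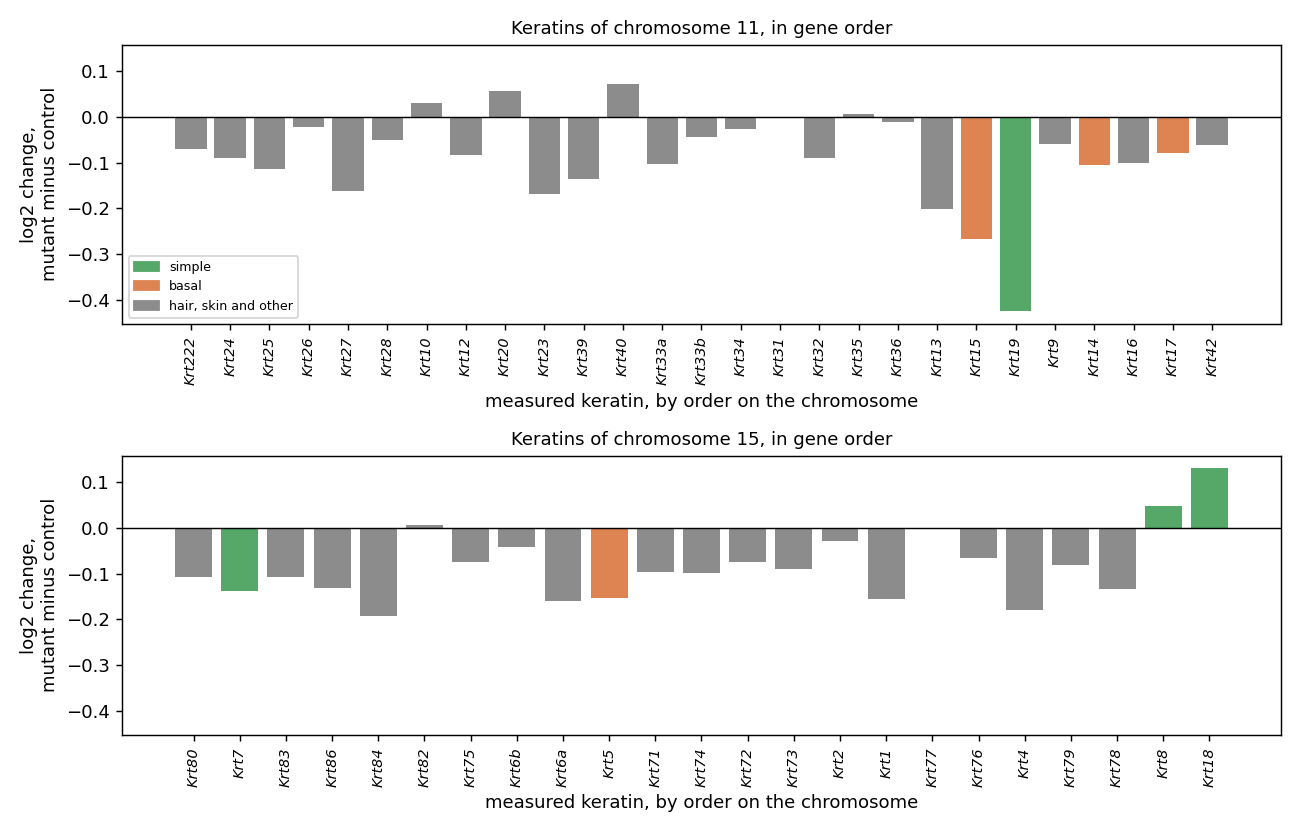
Log2 change, mutant minus control, of the measured keratins in gene order on chromosome 11 (top) and chromosome 15 (bottom). Krt13, Krt15 and Krt19 sit side by side with the lowest bars of chromosome 11, and Krt8 and Krt18 end chromosome 15 with its highest.

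Promoters were read because the deleted factors bind DNA through a forkhead domain. RefSeq windows of GRCm38.p6 were matched by symbol for 35 of the 50 keratins, and the 250 bases before the gene start were searched on both strands. A forkhead-type motif (the letters TGTTTAC, otherwise TGTTTAT, otherwise TATTTAT, otherwise TATTTGT) was present for 10 of 35 keratins (28.6%), beside 15.9% of all 27025 genes. The TATA box letters TATAAA were present for 17 of 35 (48.6%), beside 14.3% of all genes, and in 10 keratins these letters stood with their first base 29 or 30 bases before the start. A match is a description of the letters, and the motifs can overlap, as they do in Krt84 and Krt32. Keratins with and without a forkhead-type match were counted apart, with no test: 7 of the 10 with one lay below 0 (median log2 change -0.0696), as did 20 of the 25 without (median -0.0739). The share was 66.6% of all probe sets with a mean under 8. Without control 3 the numbers were 5 of 10 (median -0.0306) and 17 of 25 (median -0.0271), beside 55.8%. Shown are Krt8 (chr15:102004343-102004592, minus strand) and Krt18 (chr15:102027966-102028215, plus strand), the simple-epithelial partners, which hold neither motif, and, for both ends of the range of the 42, Krt13 and Krt84, with the lowest changes, and Krt40, with the highest. Krt13 has 2 windows, the first (a, chr11:100120578-100120827, minus strand) with 2 forkhead-type matches and the other (b, chr11:100121567-100121816, minus strand) with none. Krt84 (chr15:101532821-101533070, minus strand) holds 3, and Krt40 (chr11:99543221-99543470, minus strand) holds 1 beside a TATA box. Krt20 at 0.06 and Krt82 at 0.00540 also hold a forkhead-type match, and Krt23 at -0.17 holds none. Each runs 5′ to 3′ on the gene's strand, with matches to either motif in capitals.
Krt8: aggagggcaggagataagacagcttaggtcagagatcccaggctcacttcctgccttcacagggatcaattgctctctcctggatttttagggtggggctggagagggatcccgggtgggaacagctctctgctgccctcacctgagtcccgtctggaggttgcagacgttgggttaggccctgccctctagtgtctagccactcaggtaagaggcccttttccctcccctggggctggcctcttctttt
Krt18: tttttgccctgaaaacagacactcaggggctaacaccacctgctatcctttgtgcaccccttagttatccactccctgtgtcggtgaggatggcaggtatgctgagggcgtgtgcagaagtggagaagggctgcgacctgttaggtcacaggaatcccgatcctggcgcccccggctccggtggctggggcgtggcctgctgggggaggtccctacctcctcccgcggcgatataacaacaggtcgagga
Krt13 a: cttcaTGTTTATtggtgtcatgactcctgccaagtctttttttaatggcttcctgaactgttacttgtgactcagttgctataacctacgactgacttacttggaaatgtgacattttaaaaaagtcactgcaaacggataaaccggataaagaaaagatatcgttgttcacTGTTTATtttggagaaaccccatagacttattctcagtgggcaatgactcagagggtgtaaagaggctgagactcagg
Krt13 b: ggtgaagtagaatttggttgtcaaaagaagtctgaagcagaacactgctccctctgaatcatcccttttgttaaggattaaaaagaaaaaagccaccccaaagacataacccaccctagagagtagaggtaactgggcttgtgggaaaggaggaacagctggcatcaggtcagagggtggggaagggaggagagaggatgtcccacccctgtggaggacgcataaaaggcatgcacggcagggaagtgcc
Krt84: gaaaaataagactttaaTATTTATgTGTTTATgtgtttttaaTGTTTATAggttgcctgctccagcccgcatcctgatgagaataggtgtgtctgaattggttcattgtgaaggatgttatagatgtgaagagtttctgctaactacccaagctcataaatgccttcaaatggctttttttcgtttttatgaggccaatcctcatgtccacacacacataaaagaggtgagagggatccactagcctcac
Krt40: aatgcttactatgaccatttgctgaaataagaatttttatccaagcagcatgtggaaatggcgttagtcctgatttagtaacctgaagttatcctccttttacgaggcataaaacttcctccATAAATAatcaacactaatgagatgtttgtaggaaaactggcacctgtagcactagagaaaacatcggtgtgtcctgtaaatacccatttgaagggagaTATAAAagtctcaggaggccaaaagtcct
Neither motif was found for Krt5, Krt7 or Krt14 in these windows, and no windows for Krt15, Krt17 and Krt19 were used here.

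Genes whose products hold keratin filaments in place were counted in the same fit. Of 16 desmosome genes 0 were called (limma; 3, or 18.8%, at an unadjusted p under 0.05, all lower, beside 6.56% of all probe sets), and 10 (62.5%) lay below 0, beside 58.4%, with a median log2 change of -0.05. Perp, a desmosome membrane protein, read 8.36 ± 0.10 in controls and 8.08 ± 0.01 in mutants (mean ± SD, n = 3 in a group), a difference of -0.29 (limma adjusted p = 0.0979), and had a q of 4.67% in the authors' deposited table, the 1 desmosome gene under 5% there. Desmoplakin, Dsp, which ties keratin to the desmosome, read 10.01 ± 0.14 and 9.74 ± 0.07, a difference of -0.27 (limma adjusted p = 0.245). In both genes the mutant arrays lay below the controls. Of 10 hemidesmosome and linker genes 0 were called (1 at an unadjusted limma p under 0.05, higher, beside 5.22% of all probe sets), among them the linker Dst at 0.19 (adjusted p = 0.200) and the integrin Itgb4 at -0.15 (adjusted p = 0.430) on the log2 scale.

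Other filament genes gave 0 calls among 15 (limma; 1, or 6.67%, lower at an unadjusted p under 0.05, beside 6.56% of all probe sets). The neurofilament genes Nefm and Nefl had log2 changes of -0.15 and -0.32 (limma adjusted p = 0.416 and 0.503), that of Nefl resting on control 3, without which it was -0.0956, and Vim, the filament of mesenchyme, one of -0.02 (0.894). Of 14 measured genes of the cornified envelope, the cross-linked shell of stratified epithelia, 0 were called. At an unadjusted limma p under 0.05, 2 (14.3%) were lower, beside 6.56% of all probe sets and 7.36% of those with a mean under 8. They were the small proline-rich Sprr3 (-0.27) and Sprr1a (-0.21, or -0.13 without control 3), with adjusted p of 0.258 and 0.345. The cornified envelope genes were dim like the keratins of skin, 13 of 14 having a mean under 8. Of the 14, 10 (71.4%) lay below 0, beside 66.6% of all probe sets with a mean under 8. The oesophagus and skin markers, 8 genes that include Krt1, Krt4, Krt10 and Krt13, had 0 calls, 4 (50%) lower at an unadjusted limma p under 0.05, beside 6.56% of all probe sets and 7.36% of those with a mean under 8, and a summed level of 824 to 863 in controls and 777 to 817 in mutants. Of these 4, Krt1, Krt4 and Krt13 are keratins counted above and Dsg3 is one of the desmosome genes, so the list is no separate evidence. Whether a trace of such tissue differed between dissections was not tested. Of 6 skeletal muscle and 4 thymus markers, tissues that lie near the lung, 0 were called (limma; 1 of each list, or 16.7% and 25%, lower at an unadjusted p under 0.05, beside 6.56% of all probe sets), with median log2 changes of -0.03 and -0.13 (0.0167 and -0.0768 without control 3).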

How the data were processed

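Total RNA of 6 embryonic lungs was amplified from a poly(T) primer and labelled with biotin, per the labels' protocols. The deposited log2 values per probe set were made by the authors with RMA, per the submitters' processing notes. The 6 values of all 28815 probe sets were the same in both deposited tables, and array columns were matched to samples by accession. The authors' deposited comparison gives fold, score, p-values and q-values in percent, per the file headers. Their test, the array type and the genome build: not given in the sources used here.

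Mutant and control arrays, 3 each, were compared per probe set, 2-sided, by limma 3.58.1 (R 4.3.3; eBayes without covariates or filter), with Benjamini-Hochberg adjustment over 28815 probe sets. The 3 arrays per group limit the precision. Single values were tested with an exact permutation test. The fit was tested on simulated data. Keratin symbols are those of the deposited table, and other symbols were updated through the RefSeq table of GRCm38.p6, whose gene order was used without coordinates. Of several probe sets for a list gene the one with the highest mean was used. The named genes were the 8 simple-epithelial and basal keratins, each called keratin, of the other keratins the 6 with the smallest p, the 4 with the highest mean and both extremes of change, the 2 members of each partner list with the smallest p, and context genes; Vim, Krt9, Krt20, Krt32, Krt78, Krt82, Dsg3 and mesothelial markers were added after their values were seen. Summed marker levels are sums of 2 to the power of the log2 values. The embryos were stated to be separate. Members and lists were chosen with earlier results of these data known. Same-numbered arrays did not pair (correlations of deviations -0.194, 0.0395 and -0.185), so no block was used. Alternatives were the replicate block, a trended robust prior, quantile and cyclic loess normalization, a filter on dim probe sets, array weights, a threshold of 0.1, 1 probe set per symbol, the authors' comparison and leaving out each array. Figures were drawn with matplotlib 3.10.9.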

Additional observations from a re-analysis of the deposited data

How the results depend on the processing

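The fall of Krt19 (-0.42, limma adjusted p = 0.0382) kept its direction under every alternative run. Since its groups did not overlap, leaving out 1 array could not reverse it, and several other settings reuse the same estimate. Leaving out 1 array gave log2 changes of -0.48 to -0.38, and the replicate block, with a change of -0.42, ended the call (adjusted p = 0.0849). Over the 15 alternatives the adjusted p of Krt19 ran from 0.0069 to 0.162, and 9 passed. Among the 9 is the threshold of 0.1, which reuses the main fit and had to pass. Each keratin had 1 probe set, so using every probe set of a symbol gave no further value. The keratins called lower numbered 1, and 0 with the replicate block, 7 with array weights, 2 in the authors' deposited comparison, and 0 to 1 without 1 array; 0 were called higher in any of these. Over all probe sets the 223 calls became 7 with the replicate block, 1748 with array weights (whose fit did not reach its convergence tolerance), 360 at a threshold of 0.1, 496 in the authors' deposited comparison and 11 to 152 without 1 array. With dim probe sets left out, 22 keratins lay below 0 in place of 41, as only 30 keratins were kept, and without 1 array the number was 36 to 44. The median log2 change was -0.12 to -0.05 for all keratins, -0.09 to 0.00913 for the simple-epithelial, -0.16 to -0.10 for the basal and -0.12 to -0.05 for the other keratins without 1 array, and with quantile and cyclic loess normalization it was -0.0534 and -0.0472 for all keratins, -0.0992 and -0.0884 for the basal and -0.0499 and -0.0436 for the other keratins, with 37 below 0 under either. At a threshold of 0.1 the desmosome gene Perp was called. Of the 19 named keratins, 10, all uncalled, moved by over 1.5 times without 1 array. Among them 3 changed sign in 1 or more alternatives: Krt8 without mutant 1 (-0.00592, up to 0.10 without another array), Krt40 without mutant 1 (-0.0265, up to 0.15), and Krt33b without control 3 (0.0221, down to -0.0845) and with array weights (0.00542). With 3 arrays per group and most keratins dim, small changes could be missed. The cause of these shifts was not tested.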
